A study of Drosophila melanogaster with 6 samples.

Results

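The genes described here are the segmentation genes of the Drosophila melanogaster embryo, with the early zygotic genes of cellularisation and a few regional regulators and paralogues that act beside them. They were chosen by name, as 37 listed symbols, with earlier results of these data known. Each was represented by the brightest probe set that the array annotation gives to that symbol alone. In all, 32 of the 37 were found among the 11982 genes named on the array. The other 5 (vnd, h, run, slp1 and wg) had no probe set under this rule and were not analysed here. The question was whether these genes differ between replicate numbers 1, 2 and 3, which the labels give to both genotypes, and between the genotypes.

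RNA came from whole embryos aged 0 to 24 h, raised at 25 °C, with 1 sample on each of 6 Affymetrix arrays. One group of 3 arrays was w1118, labelled wild type, and the other group of 3 was a knock-out of clbn, for which the labels also give w1118 as the strain background. Clbn (Caliban) is the fly homologue of NEMF, a factor of the quality control of stalled ribosomes. The labels do not say whether samples of a group came from separate collections, whether a replicate number stands for a shared day, or how the embryos were distributed over the collection window, so the p-values measure the spread between these samples only, part of which may be technical.

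The early embryo is patterned along its long axis by a cascade of transcription factors. Maternal gradients set broad domains of gap genes, gap proteins position the stripes of pair-rule genes, and pair-rule proteins set up the segment polarity genes that hold the segment borders. The nuclei divide in a common cytoplasm until the membrane grows in around them, a step called cellularisation that needs a small set of genes transcribed by the embryo itself just beforehand. Genes of cellularisation are on only briefly, gap and pair-rule genes somewhat longer, and segment polarity genes through much of embryogenesis. A pool of embryos of all ages therefore holds each of these transcripts from a different share of its embryos. In such a pool, fewer embryos or cells of a kind and less RNA in each of them cannot be told apart.

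The arrays were alike in scale, with medians of 6.17 to 6.36 and first quartiles of 4.28 to 4.36 on the log2 scale, and pairs of arrays correlated at 0.986 to 0.998. Knock-out array 1 stood apart in RNA quality: its control transcripts read higher at their 3′ than at their 5′ ends by a mean of 1.24 log2, against 0.67 to 0.78 on the other 5 arrays. Genotype differences without it are given below for eve, prd, ftz, gt, halo, slam, oc and ptc. For some other members the alternatives give a range over left-out arrays. For the rest no value without this array is given. The targeted gene Clbn (CG11847) fell by 2.91 on the log2 scale in the knock-out (SE 0.15, limma adjusted p = 7.01e-05) and was lower on every knock-out array (5.14 to 5.42) than on any w1118 array (7.86 to 8.44); whether its probes lie inside the deleted part was not analysed here.

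The cellularisation genes had the largest differences between replicate numbers. On the number 3 arrays the 5 cellularisation genes were lower than on the number 2 arrays by a median of 1.26 log2 units, written here as −1.26, in w1118 (−1.19) and in the knock-out (−1.34) alike. The median was −0.34 for 7 gap and terminal genes, −0.32 for 8 pair-rule genes and paralogues, −0.20 for 6 head, posterior and other regional genes and −0.14 for 6 segment polarity genes. Over all 32 members it was −0.30, and over all 11982 genes −0.01. Of the members, 24 were lower on array 3 than on array 2 in both genotypes, as were 33.0% of all genes. For 15 members array 3 was the lowest of the 3 arrays within each genotype, against 20.0% of all genes, and for 17 members array 2 was the highest within each genotype, against 13.8%. In 11 members both number 3 arrays lay below all 4 other arrays, against 8.43% of all genes.

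**Figure D1:**
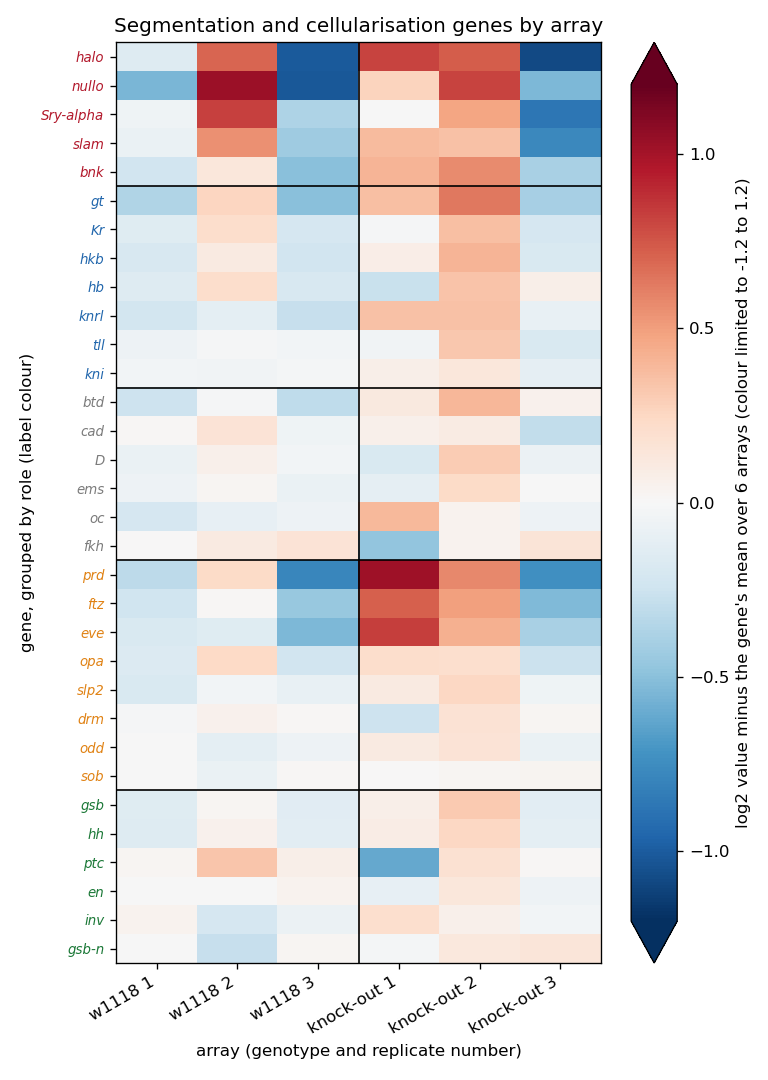
Colour gives each gene's log2 value minus its own mean over the 6 arrays, with columns for the arrays (3 of w1118, then 3 of the clbn knock-out) and rows for the 32 genes grouped by role. The cellularisation genes, prd, ftz and eve are lowest in the columns of number 3 in both genotypes, while the segment polarity rows other than ptc are pale.

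No gene passed the test for replicate number. The test was limma's moderated F test with genotype in the model, adjusted by the Benjamini-Hochberg method over all 18769 probe sets and called at an adjusted p below 0.05. It called 0 of 32 members and 0% of all genes, and the smallest adjusted p among the members was 0.49. At an unadjusted p under 0.05 it took in 15 members, against 9.08% of all genes. The contrasts between 2 numbers also called 0 members and 0% of all genes each. Unadjusted p-values under 0.05 were found for 18 members between numbers 3 and 2 (9.91% of all genes), for 10 between 3 and 1 (10.5%) and for 9 between 2 and 1 (8.23%).

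These counts depended on the arrays of number 1 and on the scaling. Without w1118 array 1 the F test called 10 members among 277 genes: gt, eve, ftz, prd, ptc, nullo, bnk, Sry-alpha, slam and halo. Without knock-out array 1 it called 5 members among 28 genes, namely prd, nullo, Sry-alpha, slam and halo. With every array centred on its median it called 3 members among 42 genes: nullo, Sry-alpha and halo. In the fits on 5 arrays the lone array of number 1 is assumed to vary like the others. The contrast of number 3 with number 2 then rests on the same 4 arrays whichever array 1 is left out, and it called 7 members (gt, prd, nullo, bnk, Sry-alpha, slam and halo; adjusted p = 0.00168 to 0.0383) among 69 genes, 0.576% of all.

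Among the cellularisation genes, halo and nullo had the largest differences. The gene halo (CG7428), which directs the transport of lipid droplets during cellularisation, read 9.33, 10.18 and 8.47 on w1118 arrays 1, 2 and 3 and 10.29, 10.21 and 8.40 on the knock-out arrays. Both number 3 arrays lay below all others, and number 2 exceeded number 3 by 3.39-fold (log2 3 minus 2 of −1.76, SE 0.25, adjusted p = 0.297). Ordered from the lowest value of this contrast, halo had rank 10 and nullo rank 11 of 11982 genes.

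The gene nullo (CG14426), needed for stable furrow canals, read 6.08, 7.65 and 5.61 in w1118 and 6.89, 7.44 and 6.09 in the knock-out. The number 2 arrays were the highest and the number 3 arrays the lowest within each genotype, but w1118 array 1 and knock-out array 3 read almost the same. The contrast of 3 with 2 was −1.69 (SE 0.23, adjusted p = 0.297), −2.04 in w1118 and −1.35 in the knock-out.

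Sry-alpha (CG17957), which organises actin at the growing furrows, read 9.02, 9.89 and 8.71 in w1118 and 9.06, 9.55 and 8.21 in the knock-out. Here the order of the arrays was the same in both genotypes, with array 2 highest and array 3 lowest, and the contrast was −1.26 (SE 0.14, adjusted p = 0.212, the smallest of any member in this contrast).

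The gene slam, whose product sets up the basal domain of the new membranes, read 9.89, 10.51 and 9.54 in w1118 and 10.34, 10.32 and 9.19 in the knock-out (−1.05, SE 0.19, adjusted p = 0.406). The gene bnk (bottleneck), which holds back the closing of the furrows, read 5.05, 5.42 and 4.78 in w1118 and 5.69, 5.85 and 4.90 in the knock-out (−0.80, SE 0.14, adjusted p = 0.373). For both genes the number 3 arrays lay below all 4 others. The bnk values all lie between the first quartiles and the medians of the arrays.

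Genes of the largely maternal machinery of cellularisation had smaller differences. Of 15 further genes listed for it, 8 were measured, among them the formin gene dia, the anillin gene scra and the septin genes Septin1 and Septin2. Their contrast of number 3 with number 2 ran from −0.13 to 0.11 with a median of −0.07. Of the 8, 0 were lowest on array 3 in both genotypes, against 20.0% of all genes, a share at which few of 8 would be.

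**Figure D2:**
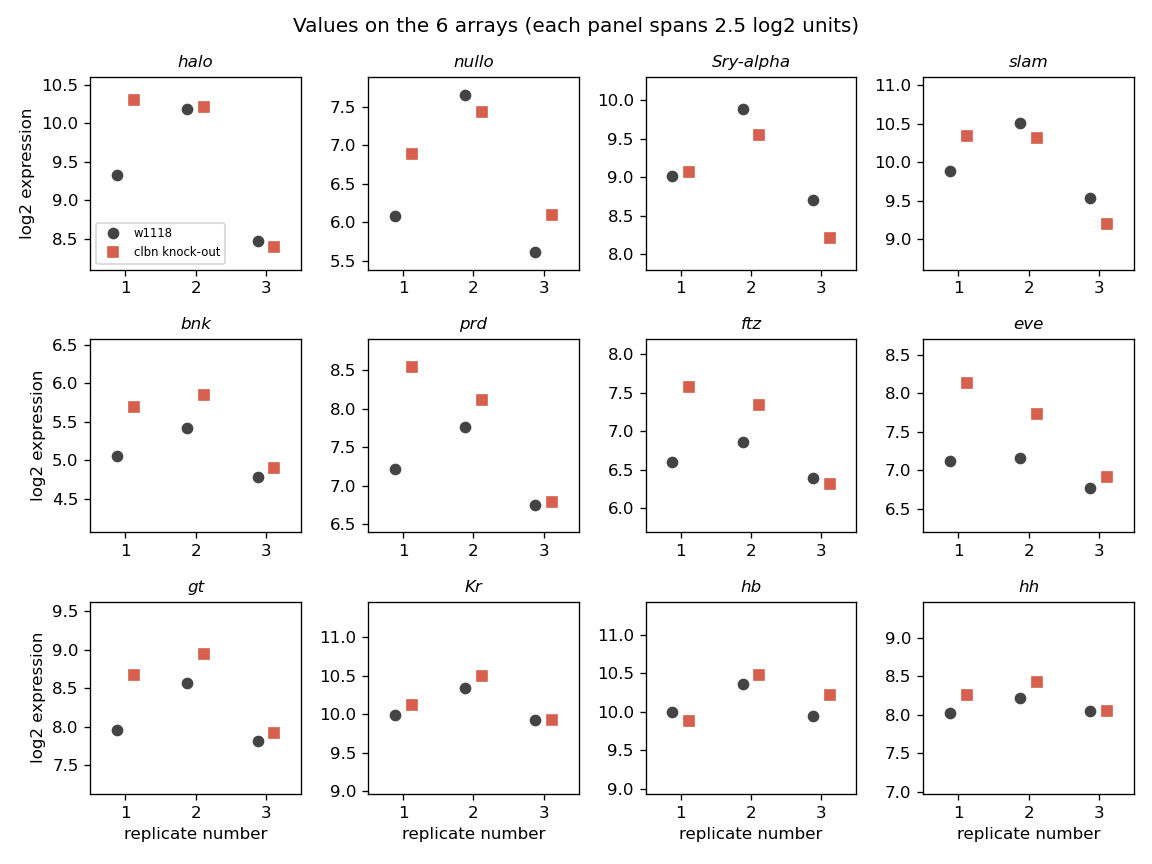
Each panel gives the log2 values of 1 gene on the 6 arrays by replicate number, with circles for w1118 and squares for the clbn knock-out, on axes that all span the same range. The numbers are labels without an order; halo reads 8.47 and 8.40 on the number 3 arrays and 10.18 and 10.21 on the number 2 arrays, while hh stays between 8.02 and 8.42.

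The gap and terminal genes varied less, and by gene. The bZIP repressor gene gt (giant) had the largest difference, with 7.95, 8.57 and 7.81 in w1118 and 8.67, 8.94 and 7.91 in the knock-out. Array 2 was highest and array 3 lowest in both genotypes, and the contrast of 3 with 2 was −0.89 (SE 0.15, adjusted p = 0.373). Its dimmer probe set gave −0.72. The zinc finger repressor gene Kr (Krüppel), active in the central domain, read 9.99, 10.34 and 9.93 in w1118 and 10.12, 10.50 and 9.93 in the knock-out (−0.49, SE 0.09, adjusted p = 0.406). The terminal gap gene hkb (huckebein) had the same order of arrays as gt, from 9.49 to 9.83 in w1118 and from 9.54 to 10.13 in the knock-out (−0.46).

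For hb (hunchback), which has both maternal and zygotic transcripts, array 2 was again highest, but array 3 was not the lowest in the knock-out. It read 9.99, 10.36 and 9.95 in w1118 and 9.88, 10.48 and 10.21 in the knock-out (−0.34, SE 0.11). The paralogous nuclear receptor-type genes kni (knirps) and knrl differed by −0.11 and −0.30. The terminal nuclear receptor gene tll (tailless) differed by −0.02 in w1118 and by −0.51 in the knock-out. The probe set of hb carries the suffix that Affymetrix gives to sets matching several transcripts, as do those of en, inv and drm.

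Among the pair-rule genes, prd, ftz and eve had larger differences than the genes of the odd-skipped family. The gene prd (paired), a PAX and homeodomain factor, read 7.22, 7.76 and 6.75 in w1118 and 8.54, 8.11 and 6.79 in the knock-out. Both number 3 arrays lay below the others, with a contrast to number 2 of −1.17 (SE 0.28, adjusted p = 0.486). The homeodomain gene ftz (fushi tarazu) read 6.61, 6.86 and 6.39 in w1118 and 7.57, 7.35 and 6.32 in the knock-out (−0.75, SE 0.23, adjusted p = 0.525). The homeodomain repressor gene eve (even skipped) read 7.12, 7.15 and 6.76 in w1118 and 8.13, 7.72 and 6.91 in the knock-out (−0.60, SE 0.19, adjusted p = 0.526). For prd, ftz and eve the number 3 arrays were also alike between genotypes, while knock-out array 1, the array with the RNA quality difference, was the highest of all 6.

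The zinc finger gene opa (odd paired), which times the change from pair-rule to segmental expression, read 9.66, 10.06 and 9.59 in w1118 and 10.02, 10.02 and 9.56 in the knock-out, a contrast of −0.47 in w1118 and −0.46 in the knock-out. The forkhead gene slp2, a paralogue of slp1, differed by −0.17. The zinc finger genes odd, sob and drm, members of the odd-skipped family that are also expressed in later tissues such as the gut and leg joints, differed by −0.09, 0.05 and −0.09. The 6 values of sob lay between 8.35 and 8.47, the smallest range of any pair-rule gene or paralogue here.

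The segment polarity genes showed small differences between numbers 3 and 2, with no common order of arrays. None of the 6 had its lowest value on array 3 in both genotypes, and array 2 was highest in both for hh, gsb and ptc. The homeodomain gene en (engrailed) read 9.77, 9.78 and 9.82 in w1118 and 9.68, 9.92 and 9.72 in the knock-out, a contrast of 3 with 2 of −0.07 (SE 0.10), and its paralogue inv differed by 0.02. The ligand gene hh (hedgehog) differed by −0.27 (SE 0.10, adjusted p = 0.533), the PAX gene gsb (gooseberry) by −0.30 and its paralogue gsb-n, known for a later role in neurons, by 0.16. The gene ptc (patched), the Hedgehog receptor, differed by −0.21 and read 7.98, 8.29 and 8.03 in w1118 and 7.35, 8.14 and 7.97 in the knock-out, with knock-out array 1 lowest. Between numbers 2 and 1 it differed by 0.55 (SE 0.15, adjusted p = 0.53), by 0.31 in w1118 and 0.79 in the knock-out, more than any other member outside the cellularisation genes. The gene of the other main ligand of this system, wg, is 1 of the 5 members not analysed here.

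The head, posterior and other regional regulators ran from −0.32 to 0.09. The head gap genes btd (buttonhead), ems (empty spiracles) and oc (ocelliless, also called orthodenticle) differed by −0.32, −0.17 and −0.03. The posterior homeodomain gene cad (caudal) read 9.28, 9.44 and 9.22 in w1118 and 9.33, 9.37 and 8.97 in the knock-out (−0.31, SE 0.10, adjusted p = 0.53). The SOX gene D (Dichaete) differed by −0.23. The forkhead gene fkh, which patterns the gut ends and salivary glands, was the single gene of this group above 0 (0.09), with 9.20, 9.30 and 9.36 in w1118 and 8.72, 9.24 and 9.35 in the knock-out.

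**Figure D3:**
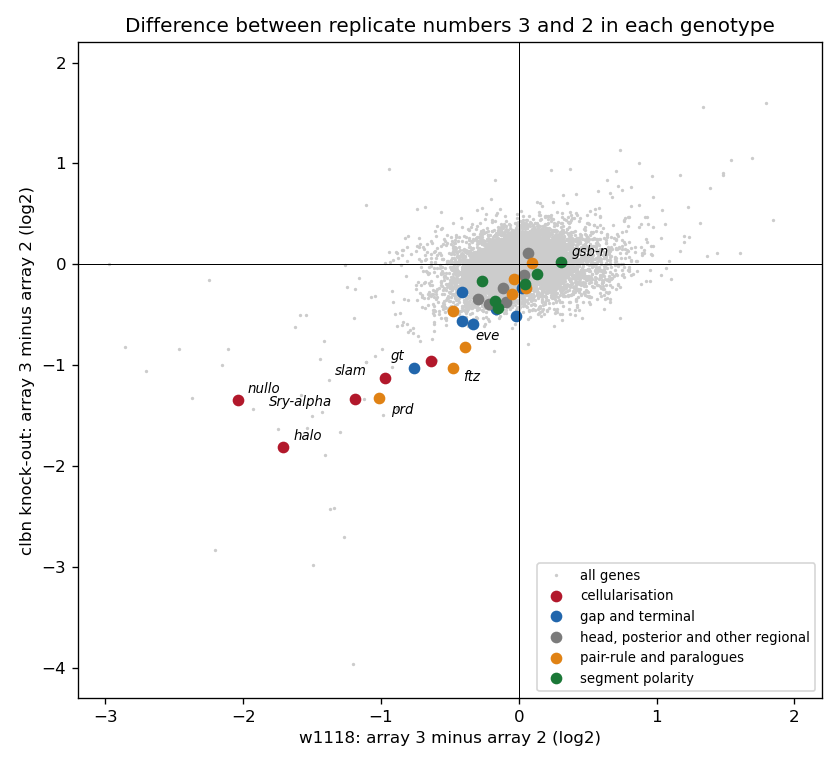
Each point is a gene, placed by its array 3 minus array 2 difference in w1118 (horizontal, log2) and in the clbn knock-out (vertical, log2), with all 11982 genes in grey and the 32 members coloured by role. The cellularisation genes with prd, ftz, eve and gt lie at the lower left in both genotypes, while inv and sob lie near 0 and gsb-n has a w1118 value of 0.31 and a knock-out value of 0.02.

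The differences between numbers 3 and 2 were similar in both genotypes, which have no arrays in common. Across the 32 members the values of w1118 and of the knock-out correlated at 0.91, against 0.38 across all genes, and 27 of 32 had the same sign, against 61.1% of all genes. Across the 27 members outside the cellularisation group the correlation was 0.88. These are descriptions, since genes on the same arrays are not independent. For number 3 against number 1 the correlation across the members was 0.86. For number 2 against number 1 it was 0.21, with 20 of 32 members of the same sign, and 0.10 across all genes. Across the members the deviations of the number 1 arrays from their genotype means correlated at 0.19, against 0.88 for number 2 and 0.87 for number 3, an order that did not hold over all genes. Across the members knock-out array 1 correlated more with w1118 array 2 (0.43) than with w1118 array 1. For halo, slam, prd, ftz, eve, opa, knrl and oc array 1 was the highest in the knock-out but not in w1118.

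Between numbers 3 and 2 the other listed genes of the pathway had medians closer to 0 than the −0.30 of all members. Between the other numbers the maternal and terminal genes ran from −0.43 to 0.33 (2 minus 1) and from −0.70 to 0.22 (3 minus 1). Of 14 measured genes of the maternal and terminal systems, among them bcd, tor, trk, cic and zld, the median contrast of 3 with 2 was −0.02. Array 3 was lowest in both genotypes for 1 of them, against 20.0% of all genes. This was osk, which organises the germ plasm (−0.70, adjusted p = 0.406). The maternal gene nanos was not among the 14 but was also lowest on array 3 in both genotypes (−1.04). Of 30 genes listed for Wingless and Hedgehog signalling 15 were measured, among them smo, ci, cos, nkd and Axn. Their median was −0.13, with 3 lowest on array 3, against 20.0% of all genes. Of 12 pair-rule cofactors and segmental targets it was −0.05, with 3 lowest on array 3, against the same 20.0%. None of these genes passed the test for replicate number.

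Early genes of the other body axis were closer to the members. Of 18 measured dorsal-ventral genes 9 were lowest on array 3 in both genotypes, against 15 of 32 members and 20.0% of all genes. Their median contrast was −0.23. The largest differences among them were those of the BMP-type ligand gene scw (−1.68), the BMP-binding protein gene tsg (−1.48), zen2 (−1.04) and the mesoderm gene twi (−0.91). The 4 measured of 8 listed homeotic genes had a median of −0.09. Of 11 other early zygotic genes listed 5 were measured. Array 3 was lowest in both genotypes for 3 of these 5, and their contrast had a median of −0.16 and a lowest value of −1.45. No test of the members against any of these lists was made.

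Markers of embryo age did not all move with the number 3 arrays in the same way. As mean deviations from the average of the 6 arrays, the 5 cellularisation genes stood at −0.21, 0.65 and −0.66 on w1118 arrays 1, 2 and 3 and at 0.37, 0.59 and −0.73 on the knock-out arrays. Of 18 maternal and germ plasm genes listed, 16 were measured. They stood at 0.00, 0.03 and −0.18 in w1118 and 0.18, −0.05 and 0.01 in the knock-out. These means leave out nanos, which was listed as nos and found no match under that symbol. It read 7.38, 7.73 and 6.63 in w1118 and 8.16, 7.75 and 6.79 in the knock-out. The late cuticle list (18 genes) was highest on array 3 in w1118, at 0.31, 0.24 and 0.56, but in the knock-out it stood at −0.57, −0.23 and −0.31. The neuronal list (11 genes) ran likewise from 0.05 to 0.27 in w1118, with array 3 highest, and from −0.27 to −0.05 in the knock-out. The muscle list (10 genes) was highest on array 3 in both genotypes. It stood at 0.22, 0.22 and 0.38 in w1118 and −0.47, −0.19 and −0.18 in the knock-out. By gene, array 3 was highest in both genotypes for 9 of 18 cuticle, 6 of 10 muscle and 5 of 11 neuronal genes. The same held for 1626 of all 11982 genes. The 12 measured follicle and yolk genes, markers of ovarian tissue, stayed between −0.12 and 0.08 on all arrays. The part of these shifts in the members' values was not tested.

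**Figure D4:**
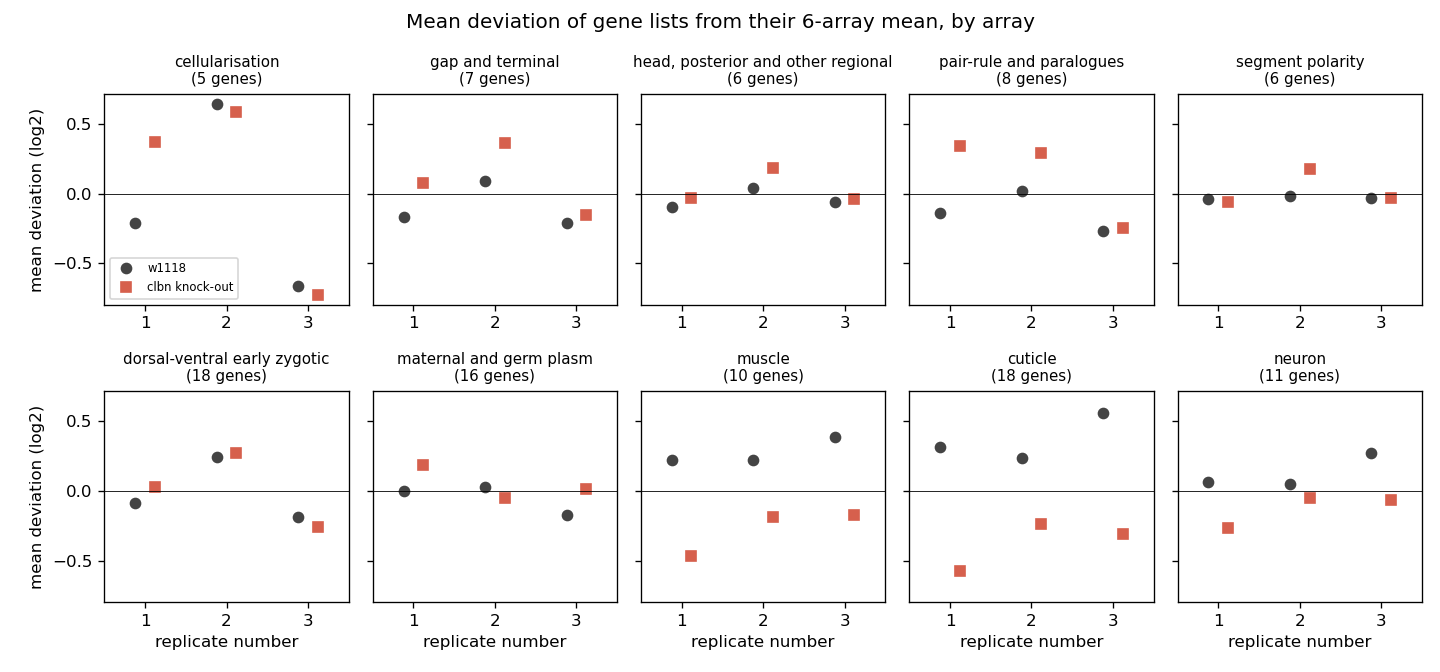
Each panel gives, for 1 gene list, the mean over its genes of the log2 value minus that gene's mean over the 6 arrays, by replicate number, with circles for w1118 and squares for the clbn knock-out. The cellularisation genes lie at −0.66 and −0.73 on the number 3 arrays of both genotypes, whereas the cuticle and muscle lists separate the genotypes.

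Between genotypes no member passed the test in the fit without the replicate number, and 1 passed with the number as a block. The first fit, limma's comparison of the knock-out with w1118, called 0 of 32 members, against 4.51% of all genes. In it 2 members had an unadjusted p under 0.05, against 22.8% of all genes. The blocked fit called btd, against 6.44% of all genes. Standard errors and adjusted p-values of genotype differences below are from the first fit unless another setting is named. The differences ran from −0.28 (ptc) to 0.58 (eve), with a median of 0.14 against 0.02 over all genes, and 25 of 32 lay above 0, as did 56.0% of all genes. The median depended on single arrays, falling to 0.044 when knock-out array 2 was omitted and to 0.069 when w1118 array 3 was, and reaching 0.22 when w1118 array 2 was omitted and 0.23 when knock-out array 3 was. In 14 members the knock-out was higher within each of the 3 numbers, against 29.1% of all genes. The genotypes did not overlap in 3 members (knrl, btd and oc), against 28.8% of all genes.

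The 2 members with an unadjusted p under 0.05 were btd and knrl. The head gap gene btd (CG12653) read 7.17, 7.42 and 7.12 in w1118 and 7.54, 7.82 and 7.48 in the knock-out, so that the lowest knock-out array lay above the highest w1118 array. The difference was 0.38 (SE 0.12, adjusted p = 0.141), and nearly the same within each number, at 0.37, 0.41 and 0.36. With the replicate number as a block it passed the test (adjusted p = 0.038), as the single member among 6.44% of all genes called by that fit, and it also passed with array weights (0.0375). In the weighted fit w1118 array 1 had a weight of 4.46 and the other arrays 0.37 to 1.11. The gene knrl (CG4761) read 7.55, 7.66 and 7.49 in w1118 and 8.13, 8.13 and 7.69 in the knock-out, a difference of 0.41 (SE 0.13, adjusted p = 0.133, and 0.0652 with the block). Without knock-out array 3 it passed the test (difference 0.56, adjusted p = 0.0337). For oc the groups barely separated, since the highest w1118 array and the lowest knock-out array both read 7.12. Without knock-out array 1 its difference was 0.11, against 0.25 with all arrays.

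The largest differences between genotypes were those of the pair-rule genes eve, prd and ftz, and they depended on the replicate number. The knock-out exceeded w1118 in eve by 1.01 among the arrays of number 1, by 0.57 among those of number 2 and by 0.15 among those of number 3 (fit over all arrays 0.58, SE 0.28, adjusted p = 0.321). For prd the differences were 1.33, 0.35 and 0.04 (0.57, SE 0.44, adjusted p = 0.544), and for ftz 0.96, 0.48 and −0.07 (0.46, SE 0.30, adjusted p = 0.473). The fitted value thus averages a difference of about 1 log2 unit in number 1 with one near 0 in number 3. Without knock-out array 1 the differences were 0.31 for eve, 0.20 for prd and 0.21 for ftz. A difference in the genotype effect between numbers cannot be tested with 1 array of each kind, and the part of RNA quality in it was not tested.

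The cellularisation genes did not differ between genotypes in a common direction. Their fitted differences were 0.39 for bnk, 0.36 for nullo, 0.31 for halo, −0.03 for slam and −0.27 for Sry-alpha, with adjusted p-values of 0.472 to 0.977. With the replicate block the adjusted p-values were 0.107 (bnk) to 0.941 (slam). Among the arrays of number 1 all 5 were higher in the knock-out, by 0.04 to 0.97, and among those of numbers 2 and 3 it was 2 of 5 each. For halo the difference among numbers (−1.76 for 3 against 2) was larger than that between genotypes, and in numbers 2 and 3 the genotypes differed by 0.03 and −0.07. Without knock-out array 1 the genotype difference was −0.024 for halo and −0.22 for slam.

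Within the gap group the differences between genotypes varied by gene. Kr, hb, tll and kni differed by 0.06 to 0.09 and hkb by 0.20, while knrl, described above, differed by 0.41 and gt by 0.40 (SE 0.28, adjusted p = 0.514), with 0.72 among the arrays of number 1 and 0.10 among those of number 3. Without knock-out array 1 the difference in gt was 0.31. Of the segment polarity genes, en differed by −0.02 (SE 0.08), hh by 0.15, gsb by 0.17, gsb-n by 0.17 and inv by 0.16. For ptc the −0.28 came mostly from number 1, where the knock-out read 0.64 log2 units below w1118 (written −0.64), against −0.15 and −0.05 in numbers 2 and 3. Without knock-out array 1 the difference in ptc was −0.044. Of the further pathway genes listed above, 1 rose in the knock-out, the tyrosine kinase gene Abl of the maternal cellularisation list (log2 0.59, adjusted p = 0.0256), and 0 fell. It is 1 of 8 genes of that list, against 4.51% of all genes called. With the replicate block 1 of the 14 maternal and terminal genes also passed, the receptor tyrosine kinase gene tor (0.49, adjusted p = 0.0463, against 0.141 without the block).

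**Figure D5:**
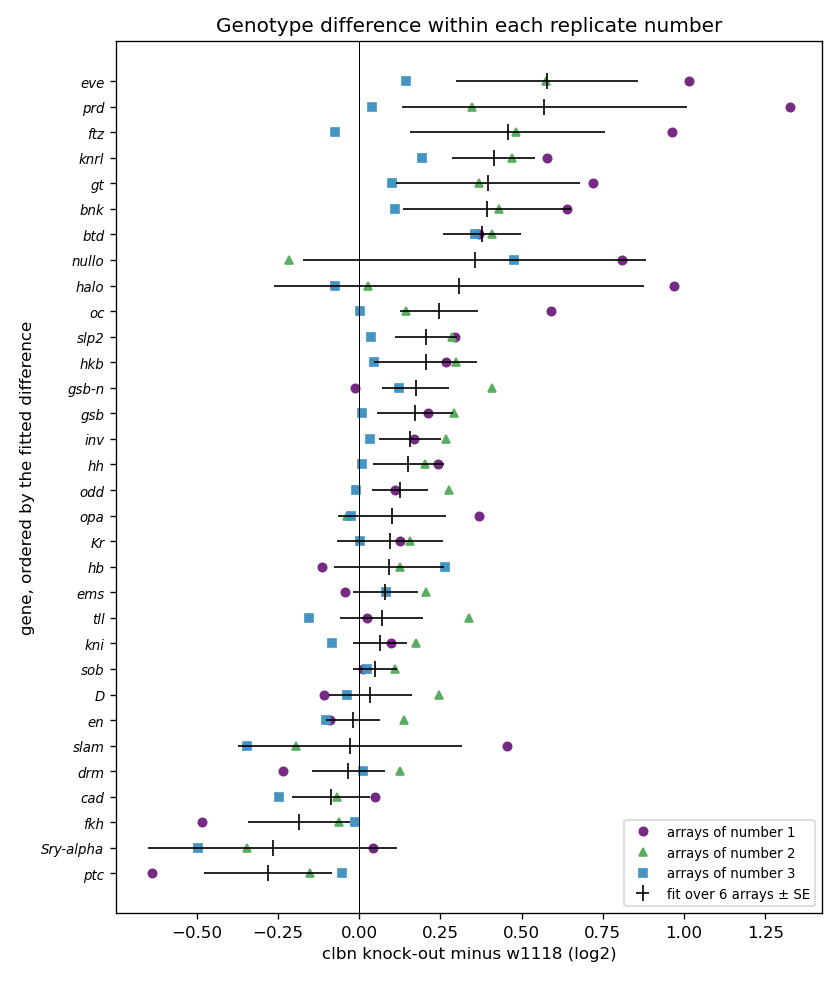
For each of the 32 genes, the knock-out minus w1118 difference (log2) is given among the arrays of number 1 (circle), number 2 (triangle) and number 3 (square), with the fitted difference over 6 arrays and its SE as a cross with a bar. For eve, prd, ftz and halo the circle lies near or above 1 and the square near 0, whereas the 3 symbols of btd lie between 0.36 and 0.41.

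In the fit by genotype 5 of 10 muscle genes, 9 of 18 cuticle genes and 1 of 11 neuronal genes fell in the knock-out and 0 rose, against 4.51% of all genes called in either direction. With the replicate block 8 muscle, 11 cuticle and 4 neuronal genes were called, against 6.44% of all genes in either direction. The genotype difference lay above 0 in 0 muscle, 0 cuticle and 1 neuronal gene. The mean deviations of the muscle and cuticle lists did not overlap between genotypes, at 0.22 to 0.38 in w1118 and −0.47 to −0.18 in the knock-out for muscle, and 0.24 to 0.56 against −0.57 to −0.23 for cuticle. Their part in the members' small positive differences was not tested. By chromosome, 10 of the 32 members lie on 3R, 3 on 3L, 8 on 2L, 7 on 2R and 4 on X, and the genes with the largest fitted genotype differences, eve, prd and ftz, lie on 2R, 2L and 3R.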

How the data were processed

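The data were the deposited log2 expression values of 18769 probe sets, besides 183 controls, on 6 arrays. The log2 scale was inferred from the range of the deposited values. How the authors corrected background and normalised the arrays is not stated in the labels, and the affy software is named without a role per the submitters' processing notes. No array was normalised again and no low-value filter was used. Low values may be background, since no detection calls were at hand, and the small number of arrays limits precision.

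Gene symbols are those of GEO's platform annotation, which may be outdated. Of 18769 probe sets 13647 had 1 symbol, 402 several and 4720 were unlisted; 13544 matched the RefSeq table of assembly Release 6 plus ISO1 MT, used for names and arms. Coordinates are left out because the build behind the array is not stated.

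Limma 3.58.1 in R 4.3.3 (lmFit, eBayes) was fitted across all probe sets, for genotype without covariates and for replicate number with genotype (residual degrees of freedom 4 and 2). Deviations from the genotype means correlated at 0.25, 0.23 and 0.39 between arrays of numbers 1, 2 and 3, and at −0.33 to 0.09 between arrays of different numbers. A gene's deviations within a genotype sum to 0, so the lower values between different numbers are not separate evidence of pairing. By these data over all probe sets, not by the labels, the numbers were taken to pair the arrays. Across the members alone knock-out array 1 was closer to w1118 array 2 than to w1118 array 1. The genotype tests given above nevertheless leave this pairing out unless the block is named. Plots used Python 3.11.15, pandas 2.3.3 and matplotlib 3.10.9.

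Both fits were also run on simulated data, to check that planted differences are found. Its spread was not compared with that of these arrays, so it says nothing of the power of the tests here. The members and lists were chosen with earlier results of these data known. The rule named the called members in full; with 0 called, the members shown on every array were chosen after their values were seen. Alternatives were the replicate block, quantile normalisation, median centring, a filter on dim probe sets, array weights, the mean of a gene's probe sets, no genotype term and each array left out.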

Additional observations from a re-analysis of the deposited data

How the results depend on the processing

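With 3 arrays per group a count of called genes moves with single arrays, and no probe set has a detection call to mark values near background. With the replicate number as a block 1 member was called by genotype (btd), and the block changed no other member's call. With array weights 1 member and 1213 genes were called by genotype, against 0 and 540. The weights were 4.46 for w1118 array 1, 0.37 for knock-out array 1 and 0.65 to 1.11 for the others. With centring on array medians 3 members and 42 genes were called by replicate number and 6 members and 53 genes between numbers 3 and 2, against 0 each. The members' median of number 2 minus 1 was 0.21, 0.17 with quantile normalisation and 0.16 with centring. With 1 array left out, members called ranged from 0 to 1 by genotype, 0 to 10 by number, 0 to 2 for 2 against 1, 0 to 10 for 3 against 1 and 0 to 7 for 3 against 2; genes called ranged from 145 to 459 by genotype and 0 to 277 by number, and the median of 2 minus 1 from 0.10 to 0.23. By contrast, genes called ranged from 0 to 199 for 2 against 1, 0 to 396 for 3 against 1 and 0 to 69 for 3 against 2, each highest without w1118 array 1 (3 against 2 also without knock-out array 1). The members' median genotype difference ranged from 0.044 to 0.23. The median of 3 minus 2 kept its sign, at −0.40 to −0.18. As a setting added after seeing the data, members lowest on array 3 in both genotypes numbered 15 to 19 with array 1 or 2 of either genotype left out, where the share of all genes was 23.9% to 28.2%, since being lowest among fewer arrays is easier. The cause of these changes was not tested. Among genes named, differences near 0 changed sign. For genotype, centring gave 0.039 for drm, 0.054 for en and 0.045 for slam, and array weights gave 0.051 for drm and 0.013 for en. For 3 minus 2, quantile normalisation gave 0.014 for oc and centring −0.011 for inv. With 1 array left out the genotype difference ranged from −0.055 to 0.25 for hb, −0.064 to 0.22 for Kr, −0.078 to 0.18 for tll, −0.015 to 0.15 for ems, −0.16 to 0.038 for cad, −0.31 to 0.0057 for fkh, −0.11 to 0.13 for D, −0.13 to 0.084 for drm, −0.089 to 0.027 for en, −0.063 to 0.96 for nullo, −0.57 to 0.10 for Sry-alpha, −0.25 to 0.35 for slam and −0.12 to 0.93 for halo. The difference of 3 minus 2 ranged from −0.22 to 0.0013 for kni, −0.21 to 0.15 for oc, −0.042 to 0.22 for fkh, −0.21 to 0.022 for odd, −0.21 to 0.025 for drm, −0.19 to 0.045 for en, −0.076 to 0.11 for inv and −0.014 to 0.34 for gsb-n.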

Other observations

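Genes outside the listed members were looked at after their values had been seen, so what follows is a description with no test. Both number 3 arrays lay below the other 4 arrays in 1010 genes. In order of the difference between numbers 3 and 2, these began with Z600, a regulator of the early mitotic divisions also called frühstart. It read 8.42, 9.19 and 7.98 on w1118 arrays 1, 2 and 3 and 9.34, 9.41 and 5.45 on the knock-out arrays, a difference of −2.58 that was far larger in the knock-out. Elba3, which encodes a part of an early embryonic boundary factor, followed at −2.52, with 8.09, 9.45 and 7.24 in w1118 and 8.66, 9.19 and 6.36 in the knock-out. SNCF stood at −1.85, Bro, a partner of Runt-type factors, at −1.69 and nanos, a maternal translational repressor, at −1.04.

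Both number 3 arrays lay above the other 4 in 599 genes. Among the 10 with the largest difference to number 2 were the digestive enzyme genes Jon25Bii (0.92), Jon25Bi (0.79) and Mal-A1 (0.74), and the neuropeptide-like gene Nplp4 (0.94). The values of Jon25Bii were 7.36, 6.59 and 7.56 in w1118 and 7.29, 6.49 and 7.36 in the knock-out, so number 2 was lowest in both genotypes while numbers 1 and 3 were close.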
